A study of Mus musculus with 78 samples.

Results

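The 5 genes described here are DIO1, CYTB, VTN, FBXO11 and MCOLN1, out of 2755 genes counted in mouse liver. They were chosen by their own values: each differed from water-drinking controls, by a rule that names no threshold, after 10, 32, 57 and 78 weeks of unbroken dichloroacetic acid (DCA). All 5 are among the 2205 genes that the authors' filter on low values kept. None passed through 1 high group alone, since the lowest count in any kept library was 38 for DIO1, 29 for CYTB, 4682 for VTN, 81 for FBXO11 and 15 for MCOLN1. The 4 contrasts that chose the genes are given as a description without a test. Groups returned to water share their control libraries with that choice, so the differences of the 5 genes from controls are a description there too. The 5 genes are tested only between groups returned to water, whose libraries the choice did not use. The spread in those tests still comes from the fit of all 68 libraries, those of the choice included.

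Male B6C3F1 mice drank DCA at 3.5 g/L in water, a target intake of 429 mg/kg-day, from 28 days of age. RNA in lysates of paraffin-embedded liver sections was read with TempO-Seq, in which pairs of short probes are joined on their target transcript and the joined probes are sequenced. There was 1 library per mouse and 6 mice per group, and 68 of 78 libraries were kept by the authors. Abundant transcripts were attenuated equally in all samples, so levels are compared here only within a gene.

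Control-10, Control-32, Control-57 and Control-78 drank deionized water and were collected in the week of their name. The continuous groups drank DCA up to collection: S1-10 and S2-32 for 10 and 32 weeks, S3-57 for 57 weeks and Direct-78 for 78 weeks. The stop groups returned to water. S1-32, S1-57 and S1-78 had 10 weeks of DCA and then 22, 47 and 68 weeks of water. S2-78 had 32 weeks of DCA and 46 of water, and S3-78 had 57 and 21. The kept libraries number 3 in Direct-78, 4 in Control-10, S2-78 and S3-78, 5 in S3-57 and 6 in each other group. The sample labels give no histology, so what share of a section was altered tissue is unknown. DNA methylation from the same study was not analysed here.

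As background, the 5 genes belong to separate systems of the hepatocyte. DIO1 is a selenium-containing enzyme that takes iodine off thyroid hormone, CYTB is the mitochondrially encoded core of respiratory complex III, and VTN is vitronectin, a plasma and matrix protein secreted by the liver. FBXO11 picks substrates for an SCF ubiquitin ligase, and MCOLN1 is a calcium-releasing channel of the lysosome membrane whose gene is a known target of the transcription factor TFEB.

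Levels are given as normalized CPM, a gene's counts on the CPM scale after the library total was multiplied by a TMM scaling factor. Differences come from 1 edgeR quasi-likelihood model of the 68 libraries in 13 groups, as log2 fold changes with standard errors (SE). A gene is called when its p, adjusted by the Benjamini-Hochberg method over all 2205 genes in a contrast, is 0.05 or less and its fold change is beyond 1.5. In bulk tissue, fewer cells of a type and less RNA per cell cannot be told apart.

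Some libraries stood apart in measures other than the 5 genes. Genes of the exocrine pancreas summed to 6490 CPM without factors in mouse 17 (S1-10), 3400 in mouse 19 (S1-32), 35300 in mouse 36 (S1-78) and 16200 in mouse 47 (S2-78), against at most 882 in the other kept libraries. Mouse 66 (Direct-78) and mouse 75 (Control-32) had the lowest squared Spearman correlation with the mean of all libraries, 0.641 and 0.628, and every other kept library had at least 0.703. Mouse 68 (Control-10) had the lowest hepatocyte markers of the kept libraries, a sum of 37426 CPM against 97912 to 125386 in the other 3 of its group. The liver label held in the 68 kept libraries: the 8 hepatocyte markers on the panel, of 11 listed, were never at 0 and summed to between 37400 and 148000 CPM. Total counts of the compared groups did not overlap in 4 contrasts. They ran from 541245 to 699825 in Direct-78 and from 1154431 to 1936370 in S3-78, both below the 2098777 to 4285848 of Control-78. In S3-57 they ran from 1123317 to 2030701, below the 2223516 to 4153377 of Control-57, and in S1-32 from 2979117 to 3914572, above the 721372 to 2731045 of Control-32. In these contrasts treatment and depth cannot be told apart.

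**Figure D1:**
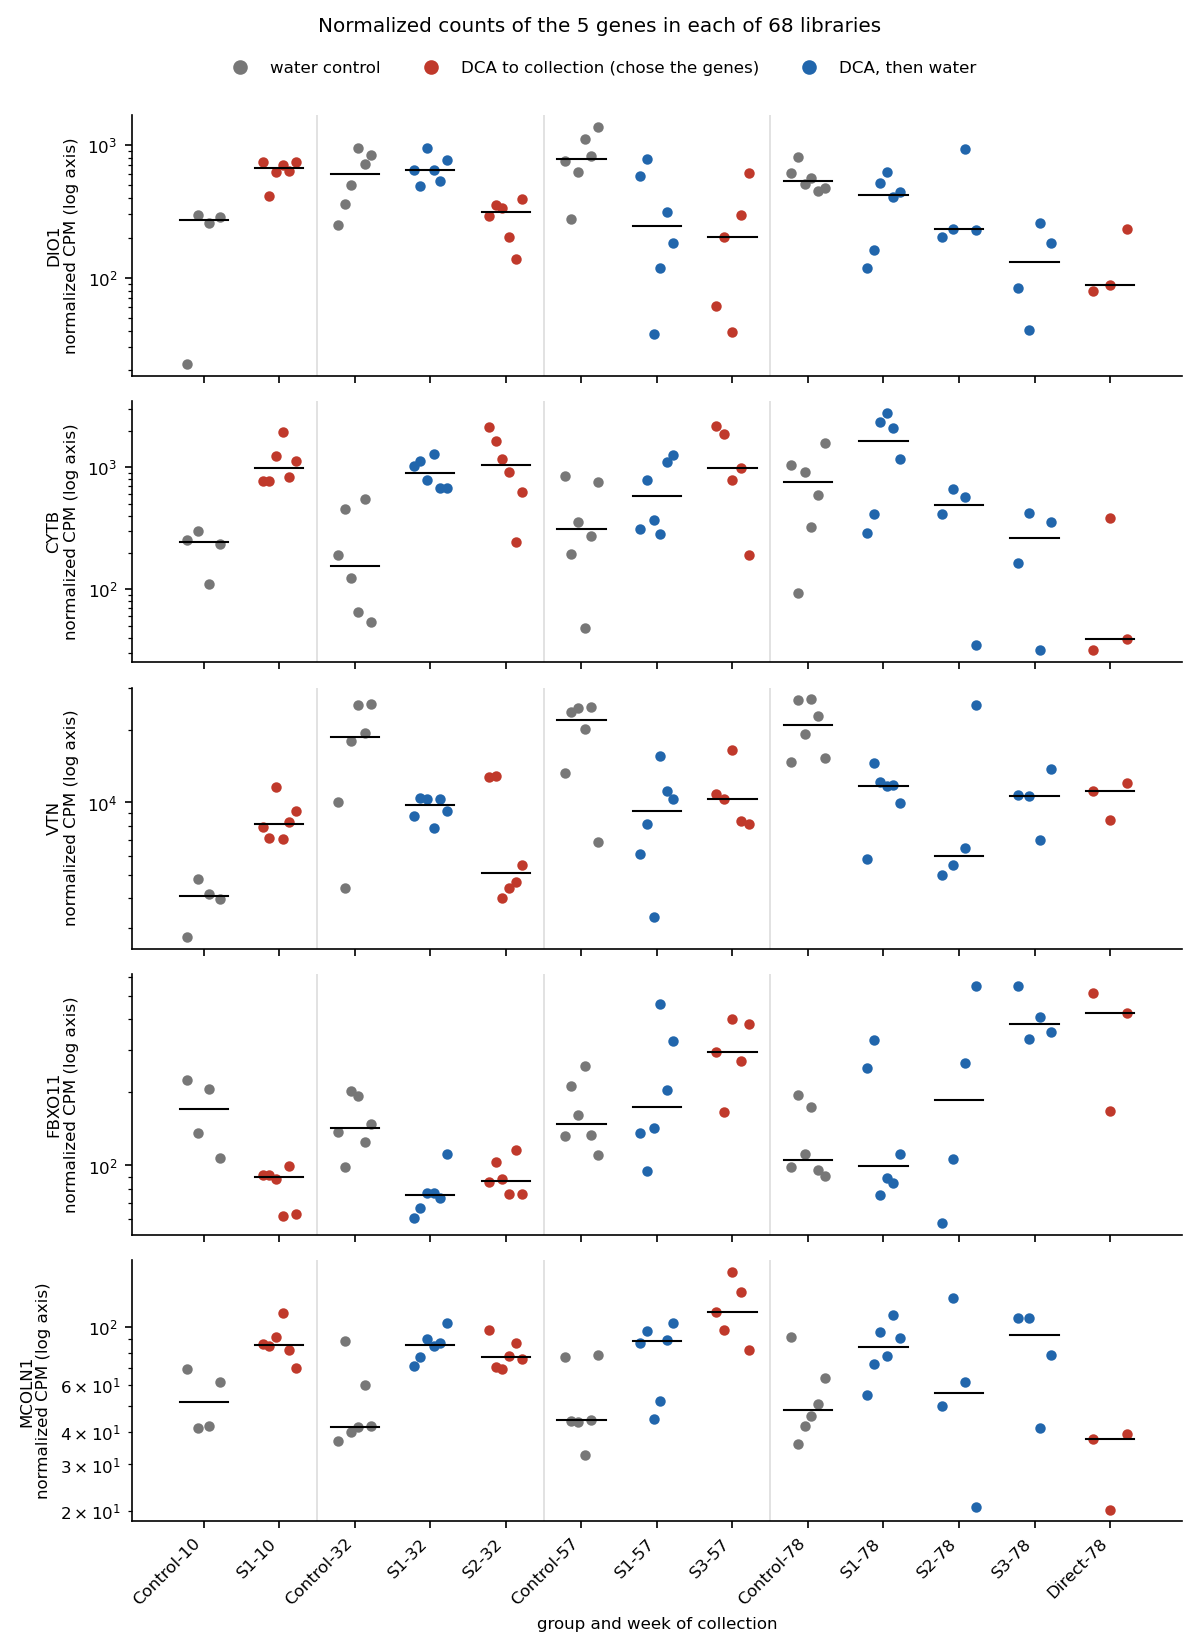
Normalized CPM (vertical, log axes) of the 5 genes in each of the 68 kept libraries, with the 13 groups along the horizontal axis in order of week and a black line at each group's median. Grey points are water controls, red points are the continuous DCA groups that chose the genes, and blue points are groups returned to water. FBXO11 in the 4 S3-78 libraries lies between 333 and 550, above all 6 Control-78 libraries.

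The choice gave no threshold, so its reach was checked on the whole table. With an unadjusted p under 0.05 in all 4 continuous contrasts as the limit, 9 of 2205 genes (0.408%) passed, the 5 described here and C9, FGG, HC and SDPR. A further 158 genes passed in 3 of the 4. With edgeR no gene was called in all 4 and with DESeq2 1 was, C9. The edgeR calls covered 5.49% of all genes at 10 weeks, 10.6% at 32, 6.3% at 57 and 24.4% at 78. None of the 9 genes kept 1 direction through the 4 contrasts, and of all 2205 genes only 228 did. With so few genes, picked on these values, nothing is read from this. For CYTB and MCOLN1 the only turn of sign is at Direct-78, whose total counts do not overlap those of its controls, and with log2 total count in the model these 2 genes kept 1 sign.

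DIO1 lies on the minus strand at chr4:107291465-107307169 (GRCm38, GENCODE vM21). Of the 5 genes, 4 have promoter windows in the RefSeq table (GRCm38.p6), each running from 250 bases before to 50 after a transcript start, and CYTB is named only. Each window was searched on both strands for CACGTG (the E-box read by TFEB), AGGTCA (a nuclear receptor half-site), GTTAAT (an HNF1 half-site) and TATAAA, which occur in 7.15%, 16.3%, 7.1% and 13.6% of the 32851 promoters in the table. The Dio1 window, chr4:107307119-107307418 on the minus strand, is shown because thyroid hormone acts on this gene, and it held none of the 4 strings in these 300 bases.
Dio1: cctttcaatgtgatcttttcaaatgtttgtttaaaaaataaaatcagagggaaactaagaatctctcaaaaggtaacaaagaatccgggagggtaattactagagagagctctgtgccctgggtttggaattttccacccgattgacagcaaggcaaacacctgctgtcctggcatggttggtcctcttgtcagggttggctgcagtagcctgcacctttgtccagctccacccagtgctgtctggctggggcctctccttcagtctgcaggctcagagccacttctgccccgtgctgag

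At 10 weeks the 6 S1-10 libraries held DIO1 at 412 to 741 normalized CPM, median 672, and the 4 Control-10 libraries at 22.4, 257.5, 286 and 295. All 6 treated libraries stood above the controls, among which mouse 68, the library with the lowest hepatocyte markers, was far below the other 3. At 32 weeks S2-32 ran from 138 to 392.4 with a median of 310.5, and Control-32 from 250 to 944 with a median of 606. The groups overlapped, and 2 of 6 treated libraries were below the lowest control.

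At 57 weeks the S3-57 libraries read 39.1, 61.2, 202, 295 and 614, against 277 to 1371 with a median of 787 in Control-57. At 78 weeks Direct-78 read 79, 87.6 and 231, all below Control-78 at 451 to 815 with a median of 535. Hepatocyte markers were lower there too, with sums of 40400 to 56800 normalized CPM against 79100 to 140000, and the part of this in the DIO1 and VTN values was not tested. DIO1 was thus high after 10 weeks of DCA and low in the later continuous groups. The log2 fold changes that describe this are 1.58 (SE 0.61), -1.08 (SE 0.52), -1.77 (SE 0.57) and -2.11 (SE 0.71).

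After the return to water, S1-32 held 486 to 945 (median 648), S1-57 37.6 to 780.5 (median 247) and S1-78 118 to 629 (median 421). S2-78 read 202, 227, 234 and 932, and S3-78 read 40.3, 83.1, 181 and 260. Only S3-78 lay wholly below its controls, and in S2-78 mouse 45 was above them and the other 3 below. As log2 fold changes from controls these are 0.16 (SE 0.52) in S1-32, -1.29 (SE 0.53) in S1-57, -0.59 (SE 0.52) in S1-78, -0.51 (SE 0.59) in S2-78 and -2.02 (SE 0.63) in S3-78. Without mouse 45 the S2-78 value was -1.34.

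From the highest mean log2 level to the lowest, DIO1 ran Control-57, S1-32, S1-10, Control-78, Control-32, S1-78, S2-78, S2-32, S1-57, S3-57, Control-10, Direct-78 and S3-78. The top and bottom groups differed by 2.71 log2 units, but none of the 12 steps between neighbours exceeded their pooled standard deviation (SD). The 2 genes most like DIO1 over the 68 libraries were AW112010 (Pearson r 0.787) and CANX (r 0.777). These points share groups and depth, and after group means were subtracted r was 0.642 and 0.615.

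Genes on the fixed lists were not chosen by the rule and are tested against controls. Of all 2205 genes edgeR called 29.1% in S1-32 and 13.3% in S3-78, with medians of 0.05 and 0.07, and the counts below stand beside those shares. The list of thyroid hormone action had 7 tested genes. In S1-32 1 was called higher and 1 lower with a list median of 0.43, so the part called was close to that of all genes, and in S3-78 0 were higher and 2 lower with a median of -1.06. The 2 that fell in S3-78 were ME1, a malic enzyme that thyroid hormone induces, at -1.89 (SE 0.51, edgeR BH-adjusted p 0.00895), and IYD, which recovers iodide, at -1.02 (SE 0.36, adjusted p 0.0472). Among 5 tested genes for selenoproteins, 1 was higher and 1 lower in S1-32, and GPX1 alone fell in S3-78, by -1.40 (SE 0.40, edgeR BH-adjusted p 0.0127). The medians of that list were 0.98 in S1-32 and -0.28 in S3-78. Neither list had a call in S1-57, S1-78 or S2-78.

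CYTB lies on the mitochondrial genome at chrM:14145-15288, plus strand. It is the only mitochondrially encoded gene on the panel: of 15 others listed, 0 were present. Copies of mitochondrial sequence exist in the nuclear genome, and whether the probes also read transcripts of those is unknown here.

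At 10 weeks CYTB ran from 777 to 1965 normalized CPM in S1-10, median 982, and the Control-10 libraries read 111, 237, 254.5 and 302. At 32 weeks S2-32 ran from 246 to 2141 (median 1048) and Control-32 from 54.2 to 553 (median 156.5). All 6 S1-10 libraries and 5 of 6 S2-32 libraries exceeded every control of their age. At 57 weeks S3-57 read 193, 784, 991, 1883 and 2172, against 48.5 to 850 (median 314) in Control-57. At 78 weeks Direct-78 read 31.6, 39.15 and 388, against 92.5 to 1589 (median 756) in Control-78. In the last pair the order was turned over, with 2 of 3 treated libraries below all controls. The describing log2 fold changes are 2.31 (SE 0.79), 2.22 (SE 0.68), 1.54 (SE 0.68) and -2.32 (SE 0.90). The last became -4.21 without mouse 65 of Direct-78.

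In the stop groups CYTB ran from 677 to 1290 in S1-32 (median 903), from 282 to 1274 in S1-57 (median 579) and from 291 to 2792 in S1-78 (median 1631). S2-78 read 35.3, 415, 570 and 659, and S3-78 read 31.75, 165, 360 and 421. All 6 S1-32 libraries were above all 6 controls, and the other stop groups overlapped theirs. In log2 fold changes this makes 1.94 (SE 0.67) in S1-32, 0.74 (SE 0.65) in S1-57, 1.00 (SE 0.65) in S1-78, -0.86 (SE 0.74) in S2-78 and -1.64 (SE 0.77) in S3-78. With all 78 libraries the S3-78 value was -0.64, and without mouse 47 the S2-78 value was -0.47.

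The order of group levels from the top was S1-78, S1-10, S2-32, S3-57, S1-32, S1-57, Control-78, Control-57, S2-78, Control-10, S3-78, Control-32 and Direct-78. CYTB had the widest span of the 5 genes, 3.81 log2 units, and also the widest scatter, a pooled within-group SD of 1.29. None of its 12 neighbouring steps exceeded the SD of the pair. Its most alike genes were SLC35A1 and EDEM1, both with r 0.83 over the 68 libraries, and 0.81 and 0.791 within groups. Libraries again share group and depth.

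Nuclear genes of complex III and cytochrome c, which work with CYTB, gave 2 tested genes. Both fell in S1-32, where all CYTB values were above the controls: CYCS by -2.06 (SE 0.32, edgeR BH-adjusted p 3.51e-05) and UQCRFS1 by -1.04 (SE 0.32, adjusted p 0.0126). CYCS fell in S1-57 as well, by -1.17 (SE 0.31, edgeR BH-adjusted p 0.0324). That contrast had 35 calls over all genes, and 1 with all 78 libraries or with only the compared groups. Of 14 tested nuclear genes of complexes I, II, IV and V, 1 was higher and 5 lower in S1-32 (list median -0.08), 0 were higher and 5 lower in S3-78 (median -1.12), and 0 were called in the other 3 stop contrasts. NDUFB5, a complex I subunit, fell in S3-78 by -2.69 (SE 0.48, edgeR BH-adjusted p 0.000212). NDUFA9, of the same complex, fell both in S1-32 by -0.88 (SE 0.25, edgeR BH-adjusted p 0.00899) and in S3-78 by -1.35 (SE 0.30, adjusted p 0.00178). The 2 tested genes for upkeep of mitochondrial DNA had no call in any stop contrast.

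VTN lies at chr11:78499091-78502324 on the plus strand. Its promoter window, chr11:78498870-78499169, is shown as the only one of the 5 windows with a TATAAA. Capitals mark TATAAA on both strands, 2 overlapping matches that begin 137 and 135 bases before the start, and ATTAAC, which is GTTAAT on the other strand, beginning 112 bases before it.
Vtn: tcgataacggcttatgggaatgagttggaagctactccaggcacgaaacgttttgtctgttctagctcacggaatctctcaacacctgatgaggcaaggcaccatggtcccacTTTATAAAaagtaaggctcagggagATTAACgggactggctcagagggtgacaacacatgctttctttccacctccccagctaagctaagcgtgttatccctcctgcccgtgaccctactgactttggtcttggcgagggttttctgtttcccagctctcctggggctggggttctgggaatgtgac

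At 10 weeks VTN ran from 7046 to 11620 normalized CPM in S1-10, median 8098, and the Control-10 libraries read 2758, 3968, 4168 and 4799. At 32 weeks S2-32 ran from 4003 to 12920 (median 5060) and Control-32 from 4402 to 25660 (median 18810). The control side moved more than the treated side here, with a median of 4068 at 10 weeks and of 18810, 22020 and 21040 at the later 3. Differences between control ages were not tested. At 57 weeks S3-57 read 8125, 8372, 10360, 10860 and 16530, against 6830 to 25030 in Control-57. At 78 weeks Direct-78 read 8417, 11140 and 12100, all below Control-78 at 14700 to 26870. The describing log2 fold changes are 1.12 (SE 0.42), -1.22 (SE 0.36), -0.81 (SE 0.38) and -0.99 (SE 0.46). The last became -0.57 with RLE and -0.51 with upper-quartile factors.

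In the stop groups VTN ran from 7840 to 10460 in S1-32 (median 9760), from 3325 to 15570 in S1-57 (median 9242) and from 5810 to 14570 in S1-78 (median 11730). S2-78 read 4980, 5495, 6435 and 25450, and S3-78 read 6945, 10600, 10740 and 13820. All libraries of S1-78 and S3-78 lay below all Control-78 libraries, and 3 of 4 S2-78 libraries did. The log2 fold changes were much alike in size, -0.86 (SE 0.36) in S1-32, -1.06 (SE 0.36) in S1-57, -0.93 (SE 0.36) in S1-78, -0.99 (SE 0.41) in S2-78 and -0.99 (SE 0.41) in S3-78. These 5 values share controls with the choice and, at 78 weeks, with each other.

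The S2-78 value moved both ways with single libraries. Without mouse 47, the library with pancreas genes and the highest VTN of its group, the log2 fold change was -1.90, and without mouse 44 it was -0.65.

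From the top the groups ran Control-78, Control-57, Control-32, S1-78, S3-57, Direct-78, S3-78, S1-32, S1-10, S2-78, S1-57, S2-32 and Control-10. The 3 later control groups thus sat above all 9 treated groups, and Control-10 below them. Of 12 neighbouring steps, only the last, 0.75 log2 units from S2-32 down to Control-10, exceeded the pooled SD, 0.65. The most alike genes were FNDC4 (r 0.789 over 68 libraries sharing group and depth, 0.824 within groups) and C9 (r 0.768, 0.713 within groups).

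The list of plasma proteins of clotting, fibrinolysis and terminal complement had 17 genes in the filtered table. Of these C9, FGG and HC met the limit in all 4 continuous contrasts against these controls and are left out of the counts. Of the other 14, 6 were called higher and 0 lower in S1-32, with a median of 0.75. In S3-78 0 were higher and 2 lower with a median of -0.71, close to the share of all genes, and 0 were called in the other 3 stop contrasts. The 2 were parts of the membrane attack complex, whose assembly vitronectin restrains, C8A at -1.39 (SE 0.43, edgeR BH-adjusted p 0.0212) and C8B at -2.83 (SE 0.72, adjusted p 0.00587). VTN had the opposite sign to the list median in S1-32. Among 5 tested receptors and partners of vitronectin, ITGB1, an integrin chain, rose in S1-32 by 1.88 (SE 0.59, edgeR BH-adjusted p 0.0159) and FN1, fibronectin, by 0.97 (SE 0.28, adjusted p 0.00839). The list median there was -0.69, and the other 3 had negative values without a call. None of the 5 was called in the other stop contrasts.

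FBXO11 lies on the minus strand at chr17:87990859-88065291. It has 2 promoter windows, each 71.7% G or C beside a median of 52.7% for all promoters, and neither holds any of the 4 strings. The first, chr17:88065996-88066295 on the minus strand, is shown because this gene is 1 of 2 called between stop groups below.
Fbxo11: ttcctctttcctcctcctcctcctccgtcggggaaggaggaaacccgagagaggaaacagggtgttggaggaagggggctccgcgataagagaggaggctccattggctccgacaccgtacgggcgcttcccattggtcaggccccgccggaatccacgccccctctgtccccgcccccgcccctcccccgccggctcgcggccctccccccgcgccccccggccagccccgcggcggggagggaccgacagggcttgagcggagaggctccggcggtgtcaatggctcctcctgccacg

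At 10 weeks FBXO11 ran from 61.6 to 99.2 normalized CPM in S1-10, median 89.6, and the Control-10 libraries read 107, 135.5, 206 and 224.5. At 32 weeks S2-32 ran from 76.2 to 115 (median 86.6) and Control-32 from 98.5 to 203 (median 142). All 6 S1-10 libraries and 4 of 6 S2-32 libraries were below every control of their age. At 57 weeks S3-57 read 166, 268.5, 295, 385 and 401, against 110.5 to 258 (median 148) in Control-57. At 78 weeks Direct-78 read 167, 425 and 513, against 90.7 to 195 (median 105) in Control-78. In the later pairs 4 of 5 and 2 of 3 treated libraries were above all controls. Over the 4 ages the log2 fold changes are -1.03 (SE 0.40), -0.73 (SE 0.36), 0.85 (SE 0.37) and 1.53 (SE 0.42).

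In the stop groups FBXO11 ran from 60.7 to 112 in S1-32 (median 75.2), from 95.1 to 463 in S1-57 (median 174) and from 75.8 to 330 in S1-78 (median 100). S2-78 read 57.8, 106, 265 and 551, and S3-78 read 333, 354, 411 and 550. In S1-32 5 of 6 libraries were below all controls, and in S3-78 all 4 were above all controls. Against controls of the same age, the log2 fold changes are -0.95 (SE 0.36) in S1-32, 0.43 (SE 0.36) in S1-57, 0.30 (SE 0.36) in S1-78, 0.94 (SE 0.39) in S2-78 and 1.69 (SE 0.39) in S3-78. Without mouse 47 the S2-78 value was 0.16.

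From the top the groups ran S3-78, Direct-78, S3-57, S1-57, S2-78, Control-57, Control-10, Control-32, S1-78, Control-78, S2-32, S1-10 and S1-32. The 3 groups with the longest exposure, 57 or 78 weeks, were the 3 highest. The groups collected by week 32 with DCA were the 3 lowest. All of these except S3-78 and S1-32 chose the genes, so the order is a description. Median total counts ran from 671116 (Direct-78) to 1584078 (S3-57) in the 3 highest. In the 3 lowest they ran from 1965692 (S1-10) to 3285609 (S1-32). With log2 total count in the model the log2 fold change from controls became 0.07 in Direct-78 and 0.95 in S3-78. The part of exposure length or depth in this order was not tested. Only the step from Control-78 to S2-32, 0.44 log2 units, exceeded its pooled SD, 0.38. NR2F6 (r 0.911) and XRCC1 (r 0.897) were most alike over the 68 libraries, the highest r of any of the 5 genes. These libraries share group and depth, and within groups r was 0.879 and 0.81.

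The other SCF ligase parts and partners on the fixed list gave 10 tested genes, with 3 higher and 1 lower in S1-32 (median 0.44), 0 higher and 1 lower in S3-78 (median -0.26) and 0 called elsewhere among the stop contrasts. With 29.1% and 13.3% of all genes called in these 2 contrasts, the list was near the background in both. SKP1A, the adaptor that joins F-box proteins to the ligase, fell in S3-78 by -1.52 (SE 0.35, edgeR BH-adjusted p 0.0026), where all FBXO11 values were above the controls. CDKN1B, an inhibitor of cell-cycle kinases that SCF ligases degrade, fell in S1-32 by -0.90 (SE 0.32, edgeR BH-adjusted p 0.0333). NEDD8, the modifier that switches the ligase on, rose there by 1.01 (SE 0.36, edgeR BH-adjusted p 0.0305).

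MCOLN1 lies at chr8:3500457-3515232 on the plus strand. Its promoter window, chr8:3500269-3500568, is shown because it holds CACGTG 2 times, beginning 71 and 45 bases before the start, marked in capitals. Of all 32851 promoters 0.594% hold this string at least 2 times. A match is a string of letters and not a measured binding site.
Mcoln1: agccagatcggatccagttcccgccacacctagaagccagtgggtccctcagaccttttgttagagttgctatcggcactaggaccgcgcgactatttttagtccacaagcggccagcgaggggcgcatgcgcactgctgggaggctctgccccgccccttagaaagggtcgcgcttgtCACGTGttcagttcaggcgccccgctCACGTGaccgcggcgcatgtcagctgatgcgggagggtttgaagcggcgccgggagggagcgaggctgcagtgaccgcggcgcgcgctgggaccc

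At 10 weeks MCOLN1 ran from 70.1 to 114 normalized CPM in S1-10, median 85.6, and the Control-10 libraries read 41.3, 41.9, 61.9 and 69.5. At 32 weeks S2-32 ran from 69.1 to 97.1 (median 76.8) and Control-32 from 36.8 to 88.55 (median 41.85). All 6 S1-10 libraries exceeded the controls, the lowest by under 1 CPM, and the 32-week groups overlapped. At 57 weeks S3-57 read 82.1, 97.15, 114, 136 and 162, all above Control-57 at 32.5 to 78.4 (median 44.15). At 78 weeks Direct-78 read 20.2, 37.5 and 39.15, against 35.8 to 91.6 (median 48.4) in Control-78, with 1 of 3 below all controls. The describing log2 fold changes are 0.71 (SE 0.32), 0.62 (SE 0.29), 1.14 (SE 0.30) and -0.77 (SE 0.37). The last became -0.25 with upper-quartile factors, -0.333 with RLE factors, -0.325 without mouse 65 and -0.40 without mouse 85.

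In the stop groups MCOLN1 ran from 71.3 to 103 in S1-32 (median 85.7), from 44.5 to 104 in S1-57 (median 88.4) and from 55.1 to 111 in S1-78 (median 84). S2-78 read 20.65, 50, 62 and 128.5, and S3-78 read 41.3, 78.3, 108 and 109. Every stop group overlapped its controls. Described as log2 fold changes, MCOLN1 stood at 0.72 (SE 0.29) in S1-32, 0.57 (SE 0.28) in S1-57, 0.60 (SE 0.28) in S1-78, 0.25 (SE 0.32) in S2-78 and 0.61 (SE 0.31) in S3-78. With all 78 libraries the last was 0.22.

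From the top the groups ran S3-57, S1-10, S1-32, S1-78, S2-32, S3-78, S1-57, S2-78, Control-78, Control-10, Control-57, Control-32 and Direct-78. All 8 treated groups other than Direct-78 had means above all 4 control groups. Of 12 steps, the one from S3-57 to S1-10 (0.40 log2 units, pooled SD 0.31) and the one from Control-32 to Direct-78 (0.64, pooled SD 0.49) exceeded the spread. The most alike genes were TUBG1 (r 0.79) and ST3GAL1 (r 0.744) over 68 libraries that share group and depth, with 0.703 and 0.583 within groups.

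The list of lysosome membrane proteins and enzymes had 14 tested genes. In S1-32, 7 were called higher and 1 lower, with a median of 1.00, in S3-78 0 were higher and 2 lower, with a median of -0.46, and in S1-57 0 were higher and 1 lower. ATP6AP1, a part of the proton pump, rose in S1-32 by 1.13 (SE 0.37, edgeR BH-adjusted p 0.0209). MAN2B1, a mannosidase, fell in S1-57 by -1.38 (SE 0.35, edgeR BH-adjusted p 0.0284) and in S3-78 by -1.95 (SE 0.41, adjusted p 0.00115). Over all genes the 35 calls in S1-57 became 1 with all 78 libraries and 1 with only the compared groups.

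Of 11 tested genes of TFEB, nutrient sensing and autophagy, 2 were higher and 4 lower in S1-32 (median 0.36), and 3 were higher and 1 lower in S3-78 (median 0.19). RHEB, which switches on mTORC1, fell in S1-32 by -0.70 (SE 0.24, edgeR BH-adjusted p 0.0266) and rose in S3-78 by 0.85 (SE 0.27, adjusted p 0.0238). The autophagy receptor SQSTM1 fell in S3-78 by -1.98 (SE 0.47, edgeR BH-adjusted p 0.00352). The list had no call in S1-57, S1-78 or S2-78, and the lysosome list had none in S1-78 or S2-78.

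**Figure D2:**
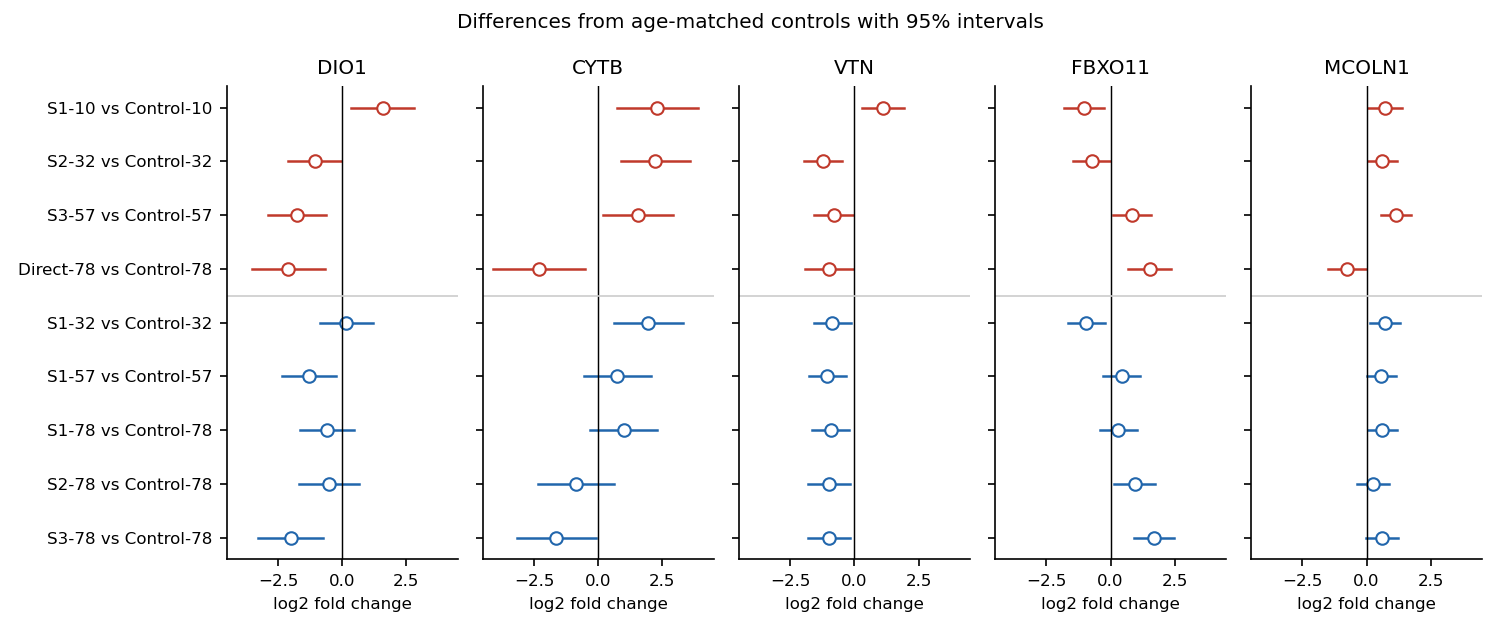
Log2 fold changes (horizontal) of the 5 genes in 9 treated groups against controls of the same age (vertical), with lines for the 95% intervals. Red marks are the continuous groups that chose the genes and blue marks are the stop groups, which share those controls, and all are a description without a test. The lowest CYTB mark is Direct-78 at -2.32, and the highest FBXO11 mark is S3-78 at 1.69.

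Between stop groups and controls, libraries did not overlap for DIO1 and FBXO11 in S3-78, for CYTB in S1-32, and for VTN in S1-78 and S3-78. How many of all genes had no overlap is not given here. As a different measure, edgeR called 29.1% of all genes in S1-32, 13.3% in S3-78 and 1.59% in each of S1-57, S1-78 and S2-78. The 5 genes were picked in contrasts that share these controls, so nothing is read from the lack of overlap.

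The stop groups at 78 weeks share no library with the continuous groups or the controls, so here the 5 genes were tested. The fit that gives the spread holds all 68 libraries, so these tests are not wholly apart from the choice. Total counts ran from 1665464 to 3301147 in S1-78, and those of S3-78 overlapped them only in part. S3-78 against S1-78 called 2 of 5 genes beside 3.72% of all genes. DIO1 was not called, at -1.42 (SE 0.61) with an unadjusted p under 0.05, as 522 of all genes had. CYTB was lower in S3-78, with a log2 fold change of -2.64 (SE 0.81, edgeR BH-adjusted p 0.0492), though 2 of 4 S3-78 libraries lay within the S1-78 range. FBXO11 was higher, with 1.39 (SE 0.39, edgeR BH-adjusted p 0.0415), and all 4 S3-78 libraries lay above all 6 S1-78 libraries. Both calls were lost when any of mice 33, 34, 35, 36, 55, 56, 59 or 60 was left out. Without mouse 55 the edgeR BH-adjusted p was 0.157 for CYTB, at -2.47, and 0.151 for FBXO11, at 1.28. Of 9 alternative settings, 2 kept the CYTB call and 5 the FBXO11 call. With log2 total count in the model CYTB was -1.66 (edgeR BH-adjusted p 0.305) and FBXO11 0.95 (adjusted p 0.232).

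S3-78 against S2-78 called 0 of 5 genes with edgeR beside 1.45% of all genes. DIO1 alone had an unadjusted p under 0.05, as 374 of all genes did, at -1.50 (SE 0.65), and DESeq2 called 0 of the 5. Without mouse 45, whose DIO1 was far above the other 3 of S2-78, it was -0.68. FBXO11 was at 0.75 (edgeR BH-adjusted p 0.399). It was called at 1.51 without mouse 47 (edgeR BH-adjusted p 0.0359) and fell to 0.41 without mouse 44 (adjusted p 0.851). S2-78 against S1-78 called 0 of 5 with edgeR, and 0% of all genes. CYTB alone had an unadjusted p under 0.05, at -1.86 (SE 0.78), and DESeq2 called 0 of the 5. Over all genes in that contrast 169 had an unadjusted p under 0.05 and DESeq2 called 4.

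The treated-control difference was also compared between the S1 collections, as an interaction. It contains the control libraries of the choice, so for the 5 genes it is a description. Of all genes edgeR called 1.68% from S1-32 to S1-57, 0.0907% from S1-57 to S1-78 and 4.4% from S1-32 to S1-78. FBXO11 changed by 1.39 (SE 0.51) from S1-32 to S1-57 and by 1.25 (SE 0.51) from S1-32 to S1-78, and DIO1 by -1.45 (SE 0.74) from S1-32 to S1-57. With log2 total count in the model these became 0.49, 0.40 and -0.42.

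**Figure D3:**
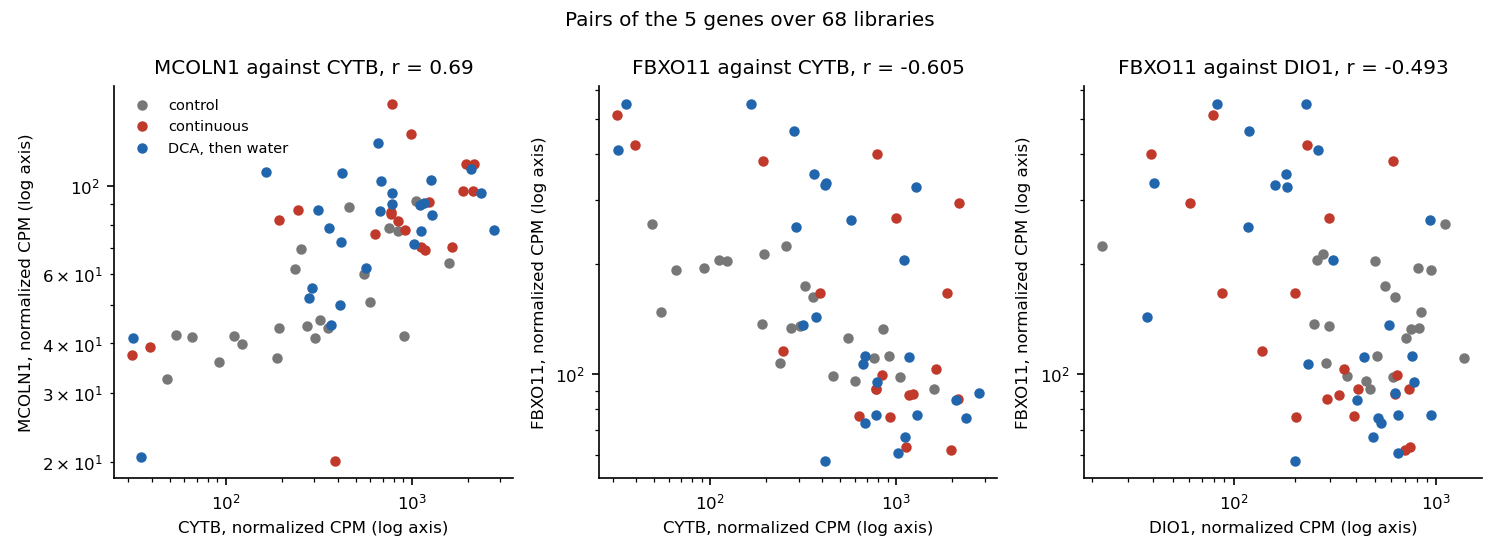
Normalized CPM of MCOLN1 against CYTB, FBXO11 against CYTB and FBXO11 against DIO1 (log axes), 1 point for each of the 68 libraries. Grey points are controls, red points are continuous DCA and blue points are DCA followed by water, and the r above each panel is 0.69, -0.605 and -0.493.

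The r over all 68 libraries includes the groups that chose the genes, so nothing is read from it, and the r within groups is given beside it. Over the libraries, which share groups and depth, CYTB and MCOLN1 had r 0.69 and kept 0.58 within groups. CYTB and FBXO11 had r -0.605, and -0.633 within groups. DIO1 and FBXO11 had r -0.493, and -0.202 within groups. VTN and FBXO11 had r 0.239 overall and 0.441 within groups. The remaining 6 pairs had r between -0.28 and 0.314, and within groups between -0.343 (FBXO11 and MCOLN1) and 0.11 (DIO1 and VTN).

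**Figure D4:**
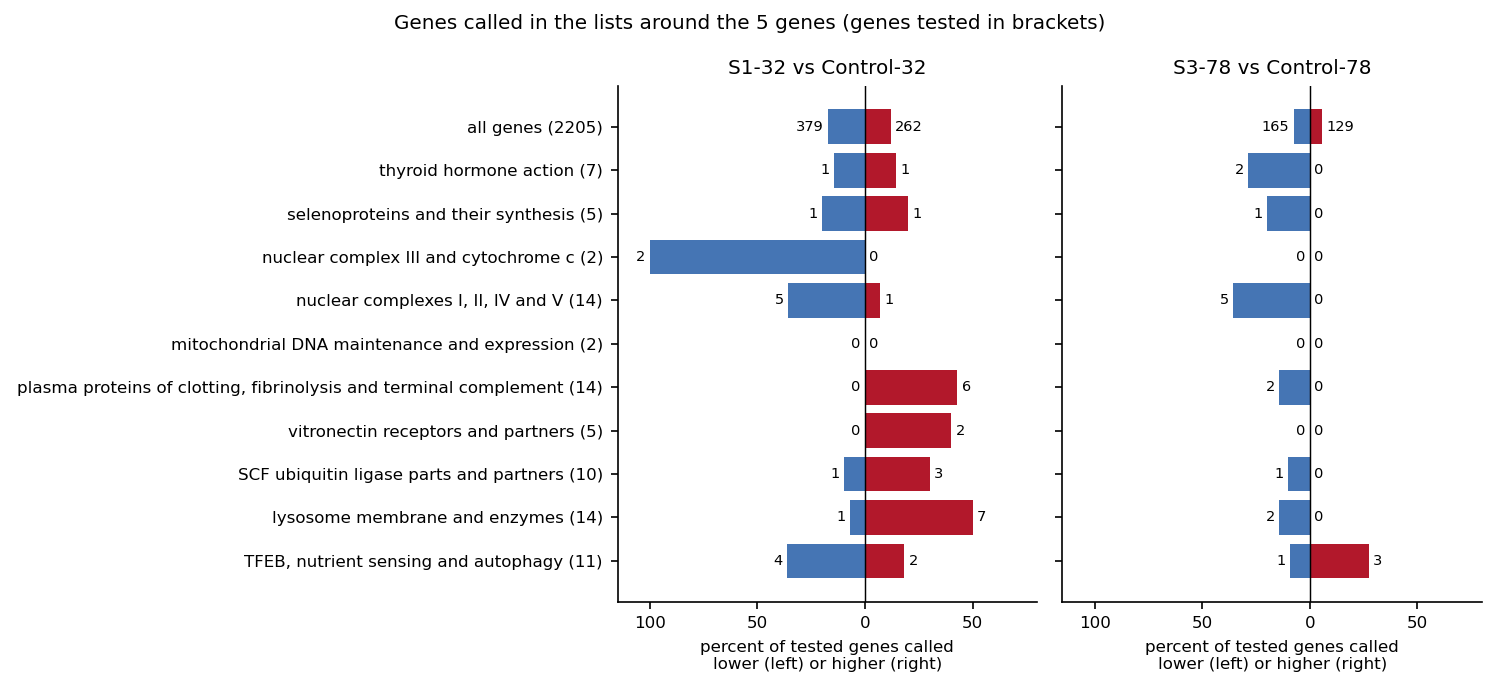
Percent of tested genes called lower (left, blue) or higher (right, red) in S1-32 against Control-32 and S3-78 against Control-78, for all 2205 genes and for the fixed lists around the 5 genes, with the number called at each bar and the number tested in brackets. C9, FGG and HC, which met the limit against these controls, are left out of the lists. Plasma protein genes show 6 higher and 0 lower in S1-32 and 0 higher and 2 lower in S3-78.

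Markers of cell types differed along with the 5 genes and are given here as summed normalized CPM, the scale of the genes. Macrophage markers (7 of 11 listed on the panel, MPEG1 the most abundant) summed to 1220 to 4610 in S3-78, 1020 to 2700 in S1-78 and 837 to 1600 in Control-78, with 0, 2 and 0 gene values at 0. Lymphocyte markers (7 of 10, PTPRC the most abundant) summed to 59.7 to 293, 42.6 to 111 and 40.2 to 63.4 in the same groups, with 6, 11 and 10 values at 0. Every S3-78 range reached higher, and every one overlapped the others. Endothelial markers (6 of 9, CLEC1B the most abundant) summed to 309 to 743 in S3-78, 213 to 535 in S1-78 and 292 to 421 in Control-78, with 4, 1 and 1 values at 0. Stellate cell and fibroblast markers (6 of 9, COL1A1 the most abundant) summed to 84.7 to 266, 169 to 1590 and 63.3 to 169, with 1, 0 and 0 values at 0. Hepatocyte markers summed to 47400 to 80800 in S3-78, 77000 to 136000 in S1-78 and 79100 to 140000 in Control-78, with medians of 59700, 89700 and 107000 and none at 0.

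Gene by gene in S3-78 against Control-78, the list median was -1.11 for 8 hepatocyte markers, 0.87 for 7 of macrophages, 1.96 for 5 tested ones of lymphocytes, -0.52 for 6 of endothelium and 0.48 for 6 of stellate cells, beside 0.07 for all genes. The only calls in these lists were APOE, lower at -1.16 (SE 0.29, edgeR BH-adjusted p 0.00528), and 1 lymphocyte marker, higher. In S3-78 against S1-78, the pair in which CYTB and FBXO11 were called, the medians were -0.93 for hepatocyte, 0.07 for macrophage, 0.85 for lymphocyte, -1.10 for endothelial and -2.06 for stellate cell markers, beside -0.01 for all genes. Of these lists only the last had calls, 2 of 6 lower, COL1A1 at -2.28 (SE 0.67, edgeR BH-adjusted p 0.0474) and COL3A1 at -2.64 (SE 0.69, adjusted p 0.0327). Both calls were lost without mouse 55 of S3-78, where the 82 calls over all genes in this pair became 0. They were lost as well when the compared groups alone were fitted, again with 0 calls. With log2 total count in the model 1 call over all genes was left. Against Control-78, stellate cell markers had 3 of 6 called higher in S1-78 (median 2.11) and 2 of 6 in S2-78 (median 1.69). Genes of the exocrine pancreas had a median of -4.65 in S3-78 against S1-78, with 0 of 11 called. Against Control-78 their medians were 6.87 in S1-78 (4 called higher), 4.42 in S2-78 (2 higher) and 2.54 in S3-78 (1 lower). In CPM without factors, mouse 36 of S1-78 summed to 35281 and the rest of that group to 249 to 535. Mouse 47 of S2-78 summed to 16238 and the rest to 252 to 410, beside 257 to 558 in Control-78. So 1 library stood far above the others in each. In S3-78 the normalized sums were 157 to 409, below the 449 to 665 of Control-78.

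In S1-32 macrophage markers summed to 1210 to 1930 against 708 to 1560 in Control-32, with 0 and 5 values at 0, 3 of 7 called higher and a median of 1.33. Hepatocyte markers there had 2 of 8 called higher, a median of 0.79 and sums of 92200 to 131000 against 66000 to 109000. These shares lie beside 29.1% of all genes. Of endothelial markers 1 of 6 was higher there.

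The continuous groups chose the genes, so their markers are given without a test. In Direct-78 the hepatocyte median was -1.41 beside -0.33 for all genes, that of macrophages -1.13 and that of lymphocytes 1.60. Cholangiocyte markers (4 of 6 on the panel, KRT19 the most abundant there) had a median of 2.56, with sums of 31 to 391 against 22.3 to 415 in Control-78 and 2 and 0 values at 0. Erythroid markers (3 of 7, CAR1 the most abundant) had a median of -4.55, with sums of 34.5 to 67.4 against 45.5 to 173 and 6 and 1 values at 0. In the stop groups neither list had a call. Stellate cell markers in S2-32 summed to 357 to 937 against 67.3 to 268 in Control-32, with a median of 1.41, and in S1-10 to 113 to 218 against 176 to 455, with a median of -0.73. S3-57 had medians of -0.19 for hepatocytes and -0.78 for stellate cells, and hepatocyte sums of 42900 to 84700 against 66300 to 127000. In the earlier groups the hepatocyte median was of the other sign, 0.54 in S1-10 and 0.91 in S2-32.

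Within groups, over the 68 libraries, FBXO11 had r -0.489 with the stellate cell sum, -0.428 with the endothelial, -0.334 with the hepatocyte, 0.25 with the macrophage and 0.052 with the lymphocyte sum. CYTB had r 0.216, 0.2, 0.221, -0.402 and -0.174 with the same sums, and VTN -0.46, -0.388, 0.179, -0.076 and -0.436. DIO1 and MCOLN1 had r between -0.279 and 0.345 with these 5 sums. With the cholangiocyte sum VTN had r -0.424 and the other 4 genes between -0.186 and 0.102, and with the erythroid sum the 5 genes had r between -0.193 and 0.26. The r of VTN depended on the scaling of the sums. With sums of CPM without factors it was -0.311 for hepatocyte markers, of opposite sign, and -0.312 for macrophage markers. The part of these cells in the differences was not tested.

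Depth moved too. Within groups the r with log2 total count was 0.414 for DIO1, 0.433 for CYTB, -0.076 for VTN, -0.384 for FBXO11 and 0.333 for MCOLN1. With log2 total count in the model the S1-32 values became 0.91 for CYTB, -0.40 for FBXO11 and 0.43 for MCOLN1, and the S3-78 values -0.88 for DIO1, -0.19 for CYTB, 0.95 for FBXO11 and 1.03 for MCOLN1. In S2-78 CYTB became 0.42 and DIO1 0.18, of opposite sign to the values above. In S3-57 the same model gave 2.59 for CYTB, -0.94 for DIO1 and 0.27 for FBXO11. In Direct-78 against Control-78 the same model gave 0.68 for CYTB and 0.06 for MCOLN1, of opposite sign to the values above, and -0.04 for DIO1 and 0.07 for FBXO11.

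**Figure D5:**
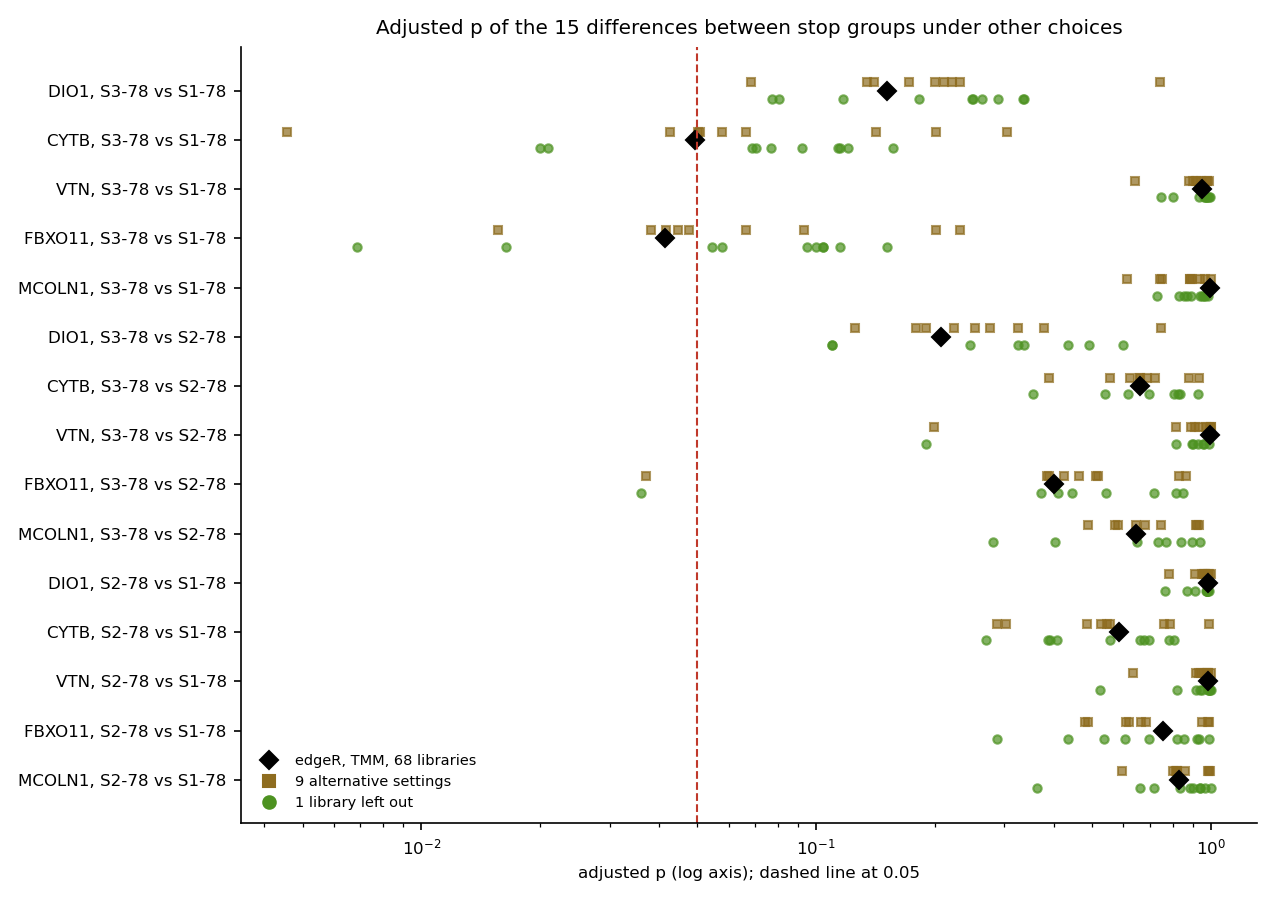
Adjusted p (horizontal, log axis) of the 15 tested differences between stop groups (vertical) in the edgeR fit (black), in 9 alternative settings (brown) and with each compared library left out (green), with a dashed line at 0.05. CYTB and FBXO11 in S3-78 against S1-78 are the only black marks left of the line, and both have brown and green points on either side of it.

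Libraries that the authors left out had at most 658155 counts and were not used above. Several stand apart in other measures. The 3 from Direct-78, mice 61, 62 and 63, held 12516, 11882 and 30529 CPM of pancreas genes, with a squared Spearman correlation of 0.433, 0.207 and 0.445. Hepatocyte markers were lowest in mouse 57 (S3-78), at 11583 CPM, and mouse 52 (S3-57), at 13027. In plain CPM without factors, FBXO11 was 906, 360 and 666 in the 3 such Direct-78 libraries and 256 in 1 of 2 from S3-78, above the kept Control-78 range of 68.1 to 126, while mouse 57 of S3-78 read 85.9. Of 2 from S2-78, mouse 46 read 495 and mouse 48 read 106. Mouse 52 of S3-57 read 85.5, below the lowest kept Control-57 library at 93.5 and below all kept S3-57 libraries. DIO1 was 399, 201 and 220 in the same Direct-78 libraries, so 2 of 3 lay below the controls' 321 to 569. The 2 Control-10 libraries left out read 772 and 108 for FBXO11, around the 117 to 309 of those kept. MCOLN1 was at 0 counts in mouse 52 and mouse 57.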

How the data were processed

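The analysis used the deposited raw counts, whole numbers of TempO-Seq reads matched to each gene's probes, for 2755 genes and 78 libraries. A second deposited unit is a signal, for which the authors divided the count plus 1 by a median-ratio factor per library. The tables of that signal served only to show which 68 libraries and 2205 genes were kept, after a check of that relation on the values. The processing notes name Bowtie, Partek 10.0.22.0524, DESeq2 and mm10. Total counts of kept libraries ran from 541245 to 4285848, median 2162678.

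R 4.3.3 with edgeR 4.0.16 fitted 1 robust quasi-likelihood model with 13 groups and TMM factors, with 2-sided tests and Benjamini-Hochberg adjustment over 2205 genes within a contrast. Called means a fold change beyond 1.5 with an adjusted p of at most 0.05, or for interactions the adjusted p alone. SE is the log2 fold change over the square root of F, and intervals are 95% t intervals. The pipeline was tested on simulated data. Correlations are Pearson's on log2 CPM with a prior count of 2. For each gene the 2 most correlated others are named, and from each list at most 3 genes called in at least 1 of 9 contrasts, those with the most calls first. Positions are from GENCODE vM21. The genes and lists were chosen with earlier results of these data known.

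Alternatives were RLE and upper-quartile factors, DESeq2 1.42.0 without independent filtering, all genes with at least 1 count, all 78 libraries, only the compared groups, log2 total count as a covariate, the adjusted p alone, each library left out in turn, and a prior count of 0.5. Leaving out 4 libraries with pancreas genes or 2 with a low Spearman correlation was added after seeing the data. Tables and figures used Python 3.11.15.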

Additional observations from a re-analysis of the deposited data

Results flagged for a closer look

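In 60 groups of 4 to 6 libraries, 1 for each gene and group, Dixon's test was used to look for a library far from the rest, and 5 were found. Chance alone would mark about 1 in 20 groups. DIO1 was low in mouse 14 of S1-10 (Dixon ratio 0.713), high in mouse 45 of S2-78 (0.904) and low in mouse 68 of Control-10 (0.947). In mouse 47 of S2-78, the library with pancreas genes, CYTB was low (0.841) and VTN high (0.843).

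S3-78 and S1-78 were treated for 57 and 10 weeks and collected at the same age. Of all 2205 genes, 3.72% were called between them, 23 higher and 59 lower in S3-78. Among the genes described here, 2 were called, in opposite directions: CYTB at -2.64 (edgeR BH-adjusted p 0.0492) and FBXO11 at 1.39 (adjusted p 0.0415). Both calls were lost on leaving out any of 8 of the 10 compared libraries. They were also lost with all 78 libraries, with log2 total count in the model and with only the compared groups. Leaving out the 4 libraries with pancreas genes, an alternative added after seeing the data, ended both too (edgeR BH-adjusted p 0.0666 for each). For DIO1, all 6 S1-10 libraries were above their controls with a ratio of means of 2.99, and all 3 Direct-78 libraries were below theirs with a ratio of 0.232. For VTN the same ratios were 2.17 and 0.503. These contrasts chose the genes, so the separation from controls is a description and nothing is read from it. DIO1 in Direct-78 was -0.039 as a log2 fold change with log2 total count in the model. Differences between weeks were not tested.

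Among libraries the authors left out, FBXO11 in plain CPM was 495 in mouse 46 of S2-78, 256 in mouse 58 of S3-78, and 906, 360 and 666 in mice 61, 62 and 63 of Direct-78, each above the highest kept Control-78 library at 126. It was within the range of those controls in mouse 48 of S2-78 (106) and mouse 57 of S3-78 (85.9). In mouse 52 of S3-57 FBXO11 was 85.5, below the kept Control-57 libraries. CYTB was 2230 in mouse 57 of S3-78, above 1310. Mice 61, 62 and 63 also held 11882 to 30529 CPM of pancreas genes. These were not tested.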

How the results depend on the processing

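The 5 genes were picked from these data, the stop contrasts and interactions share controls with the choice, and 1 library stands for 1 mouse and 1 block of liver. Groups of 3 to 6 libraries leave wide intervals. Total count does not overlap between the compared groups in S1-32, S3-57, S3-78 and Direct-78. Treatment and depth cannot be told apart there, with or without log2 total count as a covariate. In Direct-78 against Control-78 the model with log2 total count reversed CYTB to 0.682 and MCOLN1 to 0.059. It left little of DIO1 (-0.039) and FBXO11 (0.066), whose signs were the same as before. The continuous values other than those of CYTB and MCOLN1 in Direct-78 kept their sign, though not always their size, under every setting and with any library left out. The 2 called differences between stop groups kept their sign as well, while several other differences changed sign. The adjusted p alone left the calls of the 5 genes unchanged. The cause of the shifts given here was not tested.

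The counts against controls and of interactions are given only to show how far they move, since they share libraries with the choice and are not used as tests of the 5 genes. Of the 25 stop results, 5 were called, 3 in S1-32 beside 29.1% of all genes and 2 in S3-78 beside 13.3%. In S1-57, S1-78 and S2-78 0 were called, beside 1.59% of all genes in each. With all 78 libraries 2 were called, with the log2 total covariate 0, and without the 2 libraries of low Spearman correlation 2, an alternative added after seeing the data. Leaving out 1 library gave 2 (mouse 75 or 76) to 6 (mouse 47 or 74) calls, and 3 without mouse 20, 21, 22, 23 or 78. Of 15 results between stop groups, 2 were called, both in S3-78 against S1-78 beside 3.72% of all genes. There was 1 call with upper-quartile factors, with all genes of at least 1 count and without the 2 libraries of low Spearman correlation. Without the 4 libraries with pancreas genes both of these calls were lost. The 1 call there was another one, FBXO11 in S3-78 against S2-78, at 1.52 (edgeR BH-adjusted p 0.037). The 2 alternatives that leave out several libraries were added after seeing the data. There were 0 with all 78 libraries, with the covariate and with only the compared groups. Leaving out 1 library gave 0 (mouse 33, 34, 35, 36, 55, 56, 59 or 60) to 3 (mouse 47). Of 15 interactions 0 were called, and 1 with upper-quartile factors and with DESeq2. Leaving out 1 library gave 0 to 1 (mouse 26 or 82). Genes with 1 sign in all 4 continuous contrasts went from 0 to 2 with the covariate. Calls in the lists over the 5 stop contrasts, C9, FGG and HC included, went from 60 to 28 with all 78 libraries and to 17 with the covariate.

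Counts of all genes called moved by more than 1.5 times with the settings. For S1-10 121 became 69 to 241, for S2-32 234 became 48 to 393, for S3-57 139 became 12 to 220, for Direct-78 539 became as few as 11, for S1-32 641 as few as 35 and for S3-78 294 as few as 118. The count of 35 became 1 to 71 in S1-57, 0 to 85 in S1-78 and 0 to 97 in S2-78. Between stop groups, S2-78 against S1-78 went from 0 to 4, S3-78 against S1-78 from 82 to between 0 and 200, and S3-78 against S2-78 from 32 to between 0 and 148. For the interactions, 37 became 0 to 265, 2 became 0 to 8 and 97 became 0 to 259. The high ends are mostly DESeq2 and the low ends the covariate, all 78 libraries or only the compared groups.

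Leaving out 1 library moved these counts from 2 (mouse 68) to 150 (mouse 69) in S1-10, 122 (mouse 75) to 501 (mouse 74) in S2-32, 56 (mouse 51) to 180 (mouse 84) in S3-57 and 210 (mouse 64) to 632 (mouse 86) in Direct-78. The range was 375 (mouse 75) to 887 (mouse 74) in S1-32, 6 (mouse 82) to 35 in S1-57, 19 (mouse 90) to 71 (mouse 32) in S1-78, 21 (mouse 43 or 90) to 43 (mouse 45 or 47) in S2-78 and 158 (mouse 55) to 314 (mouse 86) in S3-78. Between stop groups it was 0 to 6 (mouse 45), 0 (mouse 55) to 252 (mouse 32) and 0 (mouse 43, 44 or 55) to 155 (mouse 47). For the interactions it was 9 (mouse 27) to 199 (mouse 74), 1 (mouse 36, 84 or 90) to 5 (mouse 31) and 30 (mouse 90) to 249 (mouse 86).

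The median log2 fold change of all genes moved by more than 0.1 with the factors. From TMM to RLE and upper-quartile factors it went from -0.33 to 0.07 and 0.12 in Direct-78, from 0.07 to 0.27 and 0.34 in S3-78, from 0.06 to 0.27 and 0.24 in S2-78, from 0.05 to -0.07 and -0.24 in S1-32, from 0.05 to -0.06 and -0.17 in S2-32, and from 0.07 to 0.18 and 0.19 in S1-57. With upper-quartile factors it went from -0.03 to -0.16 in S1-10. In S2-78 against S1-78 it went from -0.03 to 0.10 and 0.07, and in S3-78 against S1-78 from -0.01 to 0.10 and 0.16.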

Other observations

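The 4 further genes that met the limit in all 4 continuous contrasts were named by that limit, after their values were seen, and their values in those contrasts are described without a test. C9, a plasma protein of the membrane attack complex, had log2 fold changes of 1.97 at 10 weeks, -2.46 at 32, -2.69 at 57 and -3.23 at 78, the order of signs that DIO1 and VTN had. FGG, a fibrinogen chain, had 1.10, 1.11, 1.14 and -1.33, and HC, complement component 5, had 1.86, 0.96, 1.14 and -2.77, the order of signs of CYTB and MCOLN1. SDPR, a protein of caveolae, had -0.91, 0.85, 0.91 and 1.08, a pattern none of the 5 genes shared. The contrasts at 10 and 78 weeks differed in sign for all 9 genes in the main fit. With log2 total count in the model, CYTB (0.68) and MCOLN1 (0.06) at 78 weeks had the sign they had at 10. The 9 genes were picked on these contrasts, and how many of all genes differ in sign there is not given, so nothing is read from this.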
